A study of Mus musculus with 9 samples.

Results

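Chemokines are small secreted proteins that steer cell movement, and the genes described here are 5 secreted chemokines (Cxcl12, Ccl2, Ccl7, Cxcl1, Cxcl5), the membrane-anchored chemokine Cx3cl1 and 2 receptors of Cxcl12 (Cxcr4, Ackr3) in mouse primary myoblasts. They were taken by gene symbol from the deposited expression table, 8 of 24011 named genes with 1 probe set each. Of these, 6 passed the filter on dim genes and were tested, while Cxcl1 and Cxcl5 lay below it. Myoblasts, the dividing progeny of the satellite cells of skeletal muscle, had been grown on collagen in medium with 20% fetal bovine serum and basic FGF. They were then moved to 2% horse serum, which all groups shared, and RNA was taken after 24 h. The controls were mock-treated, the BMP4 group received 100 ng/ml recombinant BMP4, a ligand of the BMP receptors, and the GREM1 group 500 ng/ml recombinant GREM1, a secreted protein that binds BMP ligands. Each group had 3 samples on 1 Affymetrix array each. The labels state neither strain and age nor whether the 3 samples of a group were separate cultures. The p-values thus reflect only how far these samples spread, which may be technical.

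A chemokine receptor of the signalling kind couples to inhibitory G proteins and turns a gradient of its ligand into directed migration. Cxcl12, made by stromal cells of many tissues, acts through Cxcr4, while Ackr3 is an atypical receptor that recruits arrestin, internalises Cxcl12 and so lowers the amount outside the cell. In muscle this axis is known for guiding migrating muscle precursors in the embryo and for effects on satellite cell movement. Ccl2 and Ccl7 draw monocytes through Ccr2, Cxcl1 and Cxcl5 draw neutrophils through Cxcr2, and Cx3cl1 (fractalkine) is read by Cx3cr1, a receptor of macrophages and related cells.

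The start regions of the Cxcl12 axis genes are shown because these were the 3 members that passed a test in at least 1 comparison, and that of Cxcl1 because it is an inflammatory chemokine gene that stayed at the background of the array. The sequences are RefSeq's, on build GRCm38.p6, each with 250 bases before and 50 after the gene's start, on the strand of the gene. They lie at chr6:117168285-117168584 (plus strand, Cxcl12), chr1:128592250-128592549 (minus strand, Cxcr4), chr1:90203730-90204029 (plus strand, Ackr3) and chr5:90890995-90891294 (plus strand, Cxcl1). Capitals mark the GC box GGGCGG or its reverse complement in the first 3 and the NF-kB motif (GGG, any 3 bases, TTCC) or its reverse complement in Cxcl1.
Cxcl12: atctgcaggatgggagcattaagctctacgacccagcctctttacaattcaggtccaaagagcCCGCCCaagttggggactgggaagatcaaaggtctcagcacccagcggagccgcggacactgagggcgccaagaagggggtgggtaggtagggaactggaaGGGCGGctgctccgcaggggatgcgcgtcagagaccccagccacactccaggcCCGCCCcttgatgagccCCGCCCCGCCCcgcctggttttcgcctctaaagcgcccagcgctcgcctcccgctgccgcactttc
Cxcr4: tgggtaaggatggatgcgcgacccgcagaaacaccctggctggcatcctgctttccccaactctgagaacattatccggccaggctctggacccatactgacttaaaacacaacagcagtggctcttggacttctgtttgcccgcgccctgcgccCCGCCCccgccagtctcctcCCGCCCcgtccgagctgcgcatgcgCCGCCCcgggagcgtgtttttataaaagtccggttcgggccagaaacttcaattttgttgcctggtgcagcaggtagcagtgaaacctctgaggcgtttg
Ackr3: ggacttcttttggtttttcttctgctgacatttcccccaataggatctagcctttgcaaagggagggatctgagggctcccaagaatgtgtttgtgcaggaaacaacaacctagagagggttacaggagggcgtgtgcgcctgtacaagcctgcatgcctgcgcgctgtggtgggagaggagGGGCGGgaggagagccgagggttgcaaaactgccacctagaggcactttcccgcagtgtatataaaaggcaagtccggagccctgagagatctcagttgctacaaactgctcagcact
Cxcl1: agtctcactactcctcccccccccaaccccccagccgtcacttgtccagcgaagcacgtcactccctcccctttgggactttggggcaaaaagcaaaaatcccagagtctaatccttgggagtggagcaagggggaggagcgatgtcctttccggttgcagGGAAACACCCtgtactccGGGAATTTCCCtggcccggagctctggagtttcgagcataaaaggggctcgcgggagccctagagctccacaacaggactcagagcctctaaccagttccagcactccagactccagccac

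The region of Cxcl12 held 5 GC boxes, that of Cxcr4 3 and that of Ackr3 1, against 0 in Cxcl1 and 1 in Cx3cl1. Of all 32851 promoter regions of this length, 35.7% held at least 1. NF-kB is the transcription factor that drives many inflammatory genes, and its motif was found 3 times in the Cxcl1 region, 2 of the matches overlapping, and 0 times in the other 4 regions; 5.56% of all regions held it. The GC-rich element GGCGCC, to which BMP-activated SMAD proteins can bind, occurred 1 time each in Cxcl12 and Cx3cl1 and in 11.9% of all regions. The E-box CANNTG, the site of myogenic bHLH factors, was absent from the Cxcl12 and Cxcr4 windows and occurred 1 time in each of Ackr3, Cxcl1 and Cx3cl1, where 72.3% of all regions had it. TATAAA lay 2 times, overlapping on opposite strands, in Cxcr4 and 1 time each in Ackr3 and Cx3cl1 (13.6% of all regions). Both strands were read in each search. In the table, 5 of the 8 members had a region; Ccl2, Ccl7 and Cxcl5 were not matched. These matches describe letters in the sequence and no binding was measured.

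Differences are given on the log2 scale, where 1 is a doubling, with the standard error (SE) from a limma fit over all 9 arrays and p-values adjusted over the 17141 genes tested. A level is the deposited log2 value of a probe set, and since probe sets differ in brightness, levels were compared between samples and not between genes. The filter level, the 30th percentile of each array, lay between 3.89 and 4.02. Array medians were 5.00 to 5.12. Along the second principal component (20.9% of the variance) control replicate 1 stood apart at 31.6, the next array being BMP4 replicate 1 at 6.12, so calls are given below with the arrays whose removal ended them. All comparisons with control use the same 3 control arrays.

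The cells carried the markers of myoblasts. Of 9 myoblast markers 9 were above the filter, with a mean level of 9.17 to 9.57 on the control arrays, 9.51 to 9.60 with BMP4 and 9.65 to 9.85 with GREM1. Among markers of other cells, 4 of 9 leukocyte markers passed the filter (mean 3.96 to 4.06 in controls, 3.94 to 4.10 with BMP4, 3.91 to 4.06 with GREM1). So did 4 of 7 fibroblast markers (4.63 to 4.69, 4.50 to 4.68 and 4.48 to 4.53) and 3 of 8 endothelial markers (3.72 to 3.80, 3.65 to 3.76 and 3.75 to 3.85). In the pericyte and smooth muscle list, described further below, 6 of 7 passed it. Below the filter lay, among others, Ptprc (CD45, on all leukocytes), Adgre1 (macrophages), Pdgfra, Dcn and Lum (fibroblasts) and Emcn, Kdr and Tek (endothelium). Above it were Cd68, Itgam, Csf1r and Fcgr3 (leukocytes), Col1a1, Col3a1, Pdgfrb and Cd34 (fibroblasts) and Pecam1, Cdh5 and Tie1 (endothelium). Of the 2 Schwann cell markers with values 1 passed, at means of 4.06 to 4.21, 4.01 to 4.13 and 4.12 to 4.16. None of the leukocyte, fibroblast, endothelial or Schwann markers tested passed limma in any comparison without the replicate block (lowest adjusted p = 0.114). With the block the collagen gene Col3a1 passed for GREM1 against control (-0.52, adjusted p = 0.00774) and for BMP4 against GREM1 (0.42, adjusted p = 0.0151). The latter value rests on a pairing by replicate number that was not adopted between BMP4 and GREM1. The part of Col3a1 in the chemokine differences was not tested. At an unadjusted p under 0.05 there were 2 fibroblast markers for GREM1 against control, 2 fibroblast markers and 1 leukocyte marker for BMP4 against GREM1, and 1 of each for BMP4 against control.

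**Figure D1:**
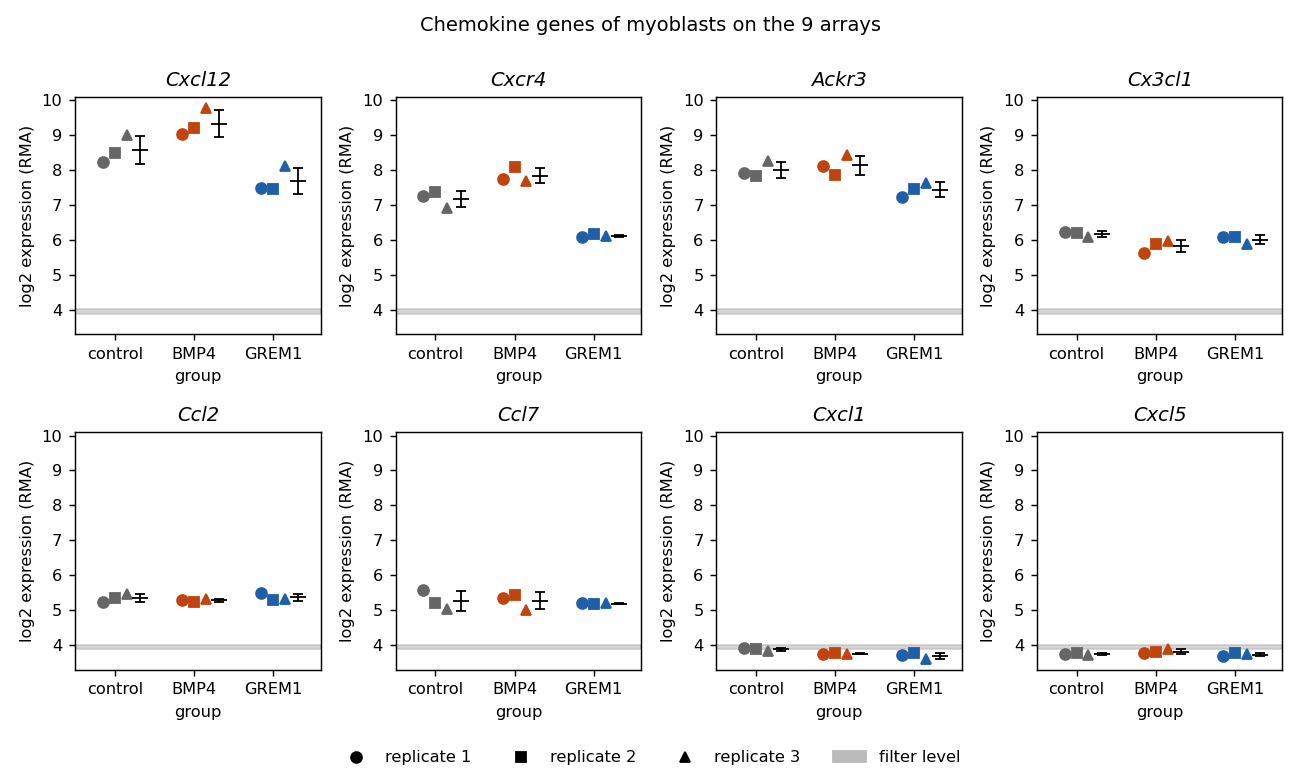
Log2 expression (vertical axis, RMA values) of the 8 genes on the 9 arrays, by group; symbols give the replicate number, the bar beside each group its mean and SD, and the grey band the range of the filter level. Cxcl12, Cxcr4 and Ackr3 are lowest on the GREM1 arrays, Ccl2 and Ccl7 overlap between all groups, and Cxcl1 and Cxcl5 sit at or under the band.

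The comparison of GREM1 with control asks how the genes answer the antagonist. Cxcr4, the signalling receptor of Cxcl12, fell. Its level was 7.25, 7.37 and 6.92 on control replicates 1 to 3 and 6.09, 6.16 and 6.10 on GREM1 replicates 1 to 3. The GREM1 arrays lay close together (6.11 ± 0.038, SD, n = 3) and all below the lowest control (7.18 ± 0.23, n = 3). The difference was -1.07 ± 0.14 (2.10-fold lower, limma adjusted p = 0.00413, 95% confidence interval -1.37 to -0.76). It passed under every one of the 17 alternatives run (highest adjusted p = 0.0248), without any single array among them. In these bulk samples, fewer cells of a type and less RNA per cell cannot be told apart.

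Cxcl12 itself was 8.22, 8.49 and 8.996 in the controls and 7.49, 7.46 and 8.10 with GREM1. The highest GREM1 array lay just under the lowest control, and the spread within both groups was wide (8.57 ± 0.40 and 7.68 ± 0.36, SD, n = 3 each). The difference of -0.88 ± 0.26 (1.84-fold lower, 95% confidence interval -1.46 to -0.30) did not pass in limma (adjusted p = 0.0898), and passed with the replicate number as a block (adjusted p = 9.73e-04). Ackr3, the scavenging receptor, was 7.92, 7.84 and 8.27 in the controls against 7.22, 7.46 and 7.64 with GREM1, groups that did not overlap. Its difference of -0.57 ± 0.17 likewise did not pass without the block (adjusted p = 0.0980) and passed with it (adjusted p = 0.0103). Cx3cl1, Ccl2 and Ccl7 were -0.15 ± 0.11, 0.026 ± 0.090 and -0.087 ± 0.15 and did not pass in either fit. Thus 1 of the 6 tested members passed, where 4.29% of all tested genes did, 2.21% lower and 2.08% higher, and with the block 3 of 6 passed, where 11.6% did. In 3 of the 6 the groups did not overlap, as in 24.0% of all tested genes. The median of the 6 was -0.36, beside -0.0057 over all genes tested.

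The comparison of BMP4 with control asks how the same genes answer the ligand, and 0 of the 6 tested members passed in limma, with 3 at an unadjusted p under 0.05. Over all genes 0.117% passed, 0.0933% higher and 0.0233% lower. Cxcr4 was 7.74, 8.08 and 7.67 with BMP4 replicates 1 to 3, all above the highest control of 7.37. The difference of 0.65 ± 0.14 (1.57-fold, 95% confidence interval 0.34 to 0.96) had adjusted p = 0.193, and adjusted p = 0.0448 with the replicate block. Cxcl12 was 9.02, 9.19 and 9.77 with BMP4, the lowest of these lying barely above the highest control of 8.996. Its difference of 0.76 ± 0.26 (1.69-fold, 95% confidence interval 0.18 to 1.34) had adjusted p = 0.520, and adjusted p = 0.0135 with the block. So 2 of 6 passed with the block, where 0.379% of all genes did.

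Ackr3 did not share that pattern on the BMP4 side. Its BMP4 arrays at 8.11, 7.86 and 8.42 overlapped the controls, with a difference of 0.12 ± 0.17 (adjusted p = 0.879) whose 95% confidence interval ran from -0.26 to 0.50. Fractalkine, Cx3cl1, was 6.23, 6.19 and 6.07 in the controls and 5.64, 5.87 and 5.98 with BMP4. These groups did not overlap, and the difference of -0.33 ± 0.11 did not pass (adjusted p = 0.482, and adjusted p = 0.258 with the block). Ccl2 and Ccl7 were -0.049 ± 0.090 and -0.0059 ± 0.15. The median of the 6 tested members was 0.058, beside -0.0060 over all genes, and in 3 of 6 the groups did not overlap, where 11.2% of all genes had such groups.

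**Figure D2:**
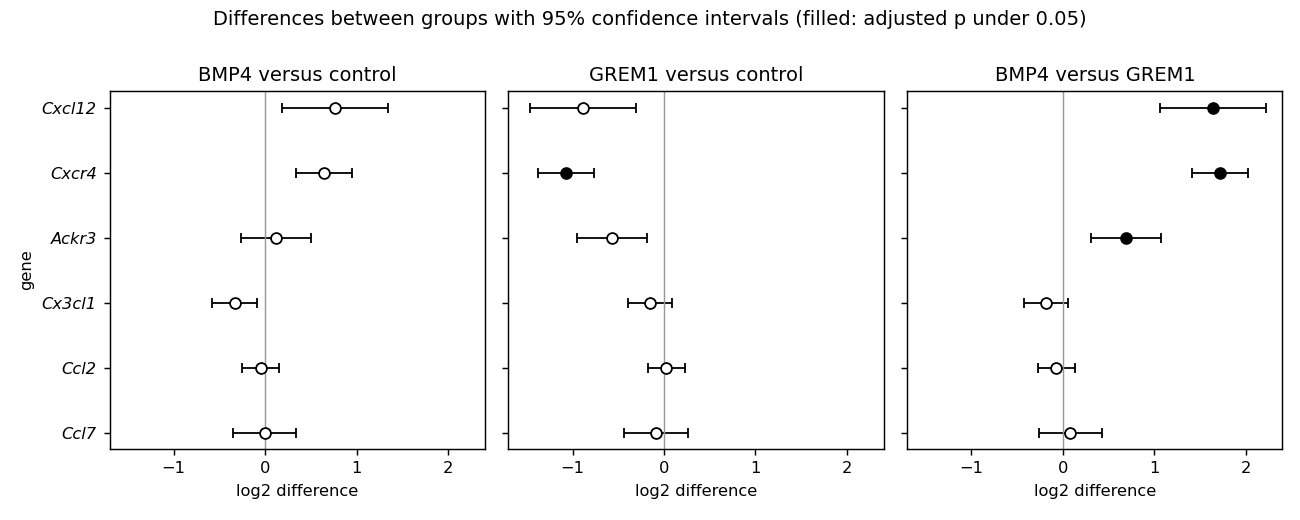
Log2 differences (horizontal axis) of the 6 tested genes in the 3 comparisons, with 95% confidence intervals from limma; filled points passed at an adjusted p under 0.05 without the replicate block. Cxcr4 is filled in 2 of the panels, Cxcl12 and Ackr3 in the panel of BMP4 against GREM1 only, and the intervals of Ccl2 and Ccl7 include 0 in all panels.

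Set against each other, ligand and antagonist gave the widest gap, and this comparison is also the test of whether the BMP4 and GREM1 effects differ. The Cxcl12 axis was higher with BMP4 than with GREM1 in all of its 3 genes. Cxcr4 differed by 1.72 ± 0.14 (3.29-fold, limma adjusted p = 1.19e-04) between a BMP4 mean of 7.83 ± 0.22 and a GREM1 mean of 6.11 ± 0.038 (SD, n = 3). Cxcl12 differed by 1.64 ± 0.26 (3.12-fold, adjusted p = 0.00536) between 9.33 ± 0.39 and 7.68 ± 0.36, and its lowest BMP4 array (9.02) stood 0.92 above its highest GREM1 array (8.10). Both passed under all 17 alternatives, at adjusted p of at most 0.00129 for Cxcr4 and 0.0321 for Cxcl12.

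Ackr3 differed by 0.69 ± 0.17 (1.61-fold, adjusted p = 0.0442), from 8.13 ± 0.28 with BMP4 to 7.44 ± 0.21 with GREM1. That call was close to the threshold. It was lost without control replicate 1 or 2, BMP4 replicate 1 or 3, or any one of the GREM1 replicates (adjusted p of 0.0502 to 0.166), and also when dim genes were kept, arrays were centred on their medians or only the 6 arrays were fitted (0.0551 to 0.0626). Cx3cl1, Ccl2 and Ccl7 were -0.18 ± 0.11, -0.075 ± 0.090 and 0.081 ± 0.15 and did not pass (lowest adjusted p = 0.412). In all, 3 of the 6 tested members passed, all higher with BMP4, where 6.45% of all tested genes passed, 3.62% higher and 2.83% lower; in the same 3 the groups did not overlap, as in 24.5% of all genes. The median of the 6 was 0.39, with a median of 0 over all genes up to rounding.

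Joined by replicate number, the arrays show how even the Cxcl12 differences were. For the comparisons with control the numbers were taken to pair the samples, which the labels do not state. Deviations from the group means correlated over all genes for each number, at 0.118 or more. Some arrays of unlike number correlated as well, such as control replicate 1 and GREM1 replicate 2 (0.159). Replicate 3 had the highest Cxcl12 of its group in all 3 groups. Between arrays of the same number, BMP4 exceeded control by 0.80, 0.70 and 0.77 (0.76 ± 0.052, SD, n = 3), although the controls themselves spanned 8.22 to 8.996. GREM1 lay below control by 0.73, 1.03 and 0.89 in the same order. For Cxcr4 the BMP4 array exceeded its control by 0.49, 0.71 and 0.75, and for Ackr3 by 0.19, 0.024 and 0.15. Cx3cl1 differed by -0.59, -0.31 and -0.094, less even than Cxcl12.

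**Figure D3:**
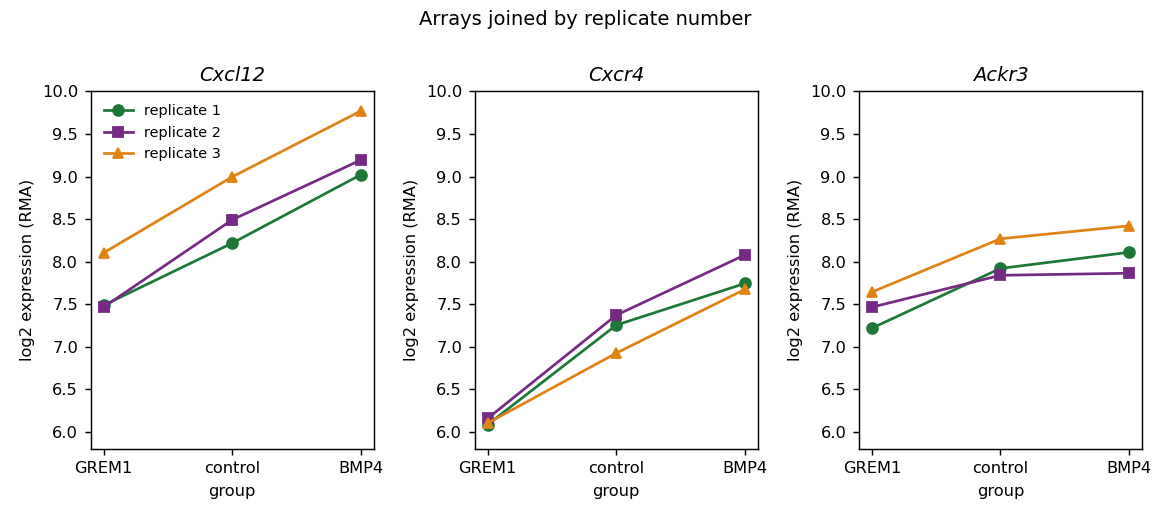
Log2 expression (vertical axis) of Cxcl12, Cxcr4 and Ackr3 with GREM1, in controls and with BMP4 (horizontal axis); lines join arrays of the same replicate number. The 3 Cxcl12 lines climb from GREM1 to BMP4 with replicate 3 on top. Those of replicates 1 and 2 cross between GREM1 and control, and all 3 are close to parallel from control to BMP4. The Cxcr4 lines meet at 6.09 to 6.16 with GREM1, and the Ackr3 lines are nearly flat between control and BMP4.

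Of the inflammatory chemokines, Ccl2 and Ccl7 passed the filter without a called difference, and Cxcl1 and Cxcl5 lay at the background. Ccl2, the main monocyte attractant, was 5.23, 5.34 and 5.46 in the controls, 5.31, 5.25 and 5.33 with BMP4 and 5.50, 5.28 and 5.33 with GREM1. Its neighbour Ccl7, with 0 genes between them on chromosome 11, was 5.59, 5.20 and 5.04, then 5.36, 5.45 and 5.00, then 5.20, 5.18 and 5.20; 3 of its 9 values were identical. The groups overlapped in every comparison for both. Their intervals limit what difference in these probe set levels, rather than in RNA amount, could have been missed. With GREM1 the 95% confidence interval against control was -0.18 to 0.23 for Ccl2 and -0.43 to 0.26 for Ccl7. With BMP4 it was -0.25 to 0.15 and -0.35 to 0.34. Cxcl1, a neutrophil attractant, lay at 3.94, 3.88 and 3.84 in the controls, 3.76, 3.79 and 3.74 with BMP4 and 3.71, 3.77 and 3.60 with GREM1. Cxcl5 was 3.76, 3.78 and 3.71, then 3.77, 3.80 and 3.90, then 3.68, 3.77 and 3.75. Of these 18 values 1 lay above the filter level of its array (Cxcl5 on BMP4 replicate 3), so neither gene was tested and no difference is drawn from them.

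Among the receptors of these ligands, Ccr2, which reads Ccl2 and Ccl7, ranged from 2.71 to 3.06 over the 9 arrays and Ccr1 from 2.86 to 3.26, both under the filter. Cxcr2, the receptor of Cxcl1 and Cxcl5, ranged from 3.89 to 4.26 and passed the filter, but lay close to the filter level of 3.89 to 4.02. The fractalkine receptor Cx3cr1 was at 6.45 ± 0.11 in controls, 6.22 ± 0.089 with BMP4 and 6.40 ± 0.11 with GREM1 (SD, n = 3), and did not pass in any comparison (lowest adjusted p = 0.331).

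Among the listed ligands and receptors, the genes that passed in any comparison were Cxcr4, Cxcl12 and Ackr3. Ackr3 did so in 1 comparison and lost the call in 10 of 17 alternatives. Members and lists were chosen with earlier results of these data known, so this contrast is a description. Of 62 chemokine ligands and receptors on the lists 59 had values and 34 passed the filter, 20 ligands and 14 receptors. Apart from the members, 28 were tested and 0 passed in limma in any comparison. Over all tested genes 0.117%, 4.29% and 6.45% passed for BMP4 against control, GREM1 against control and BMP4 against GREM1. At such shares few of 28 genes would pass, so the count of 0 says little about them. Of the 28, 1, 1 and 2 had an unadjusted p under 0.05 in the same order. Those with the smallest p were Cx3cr1 (-0.23), Cxcl17 (-0.15) and Ccl17 (-0.17) for BMP4 against control, and Ccl19 (0.31), Ccr10 (0.29) and Ccl1 (0.26) for GREM1 against control. For BMP4 against GREM1 they were Cxcr2 (-0.20), Ccl1 (-0.33) and Cx3cr1 (-0.19), and the lowest adjusted p of all of these was 0.169. Of these genes, Ccl17, Ccl19 and Cxcr2 had levels close to the filter level. The medians of the 28 were -0.059, -0.0063 and -0.042 in the 3 comparisons.

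**Figure D4:**
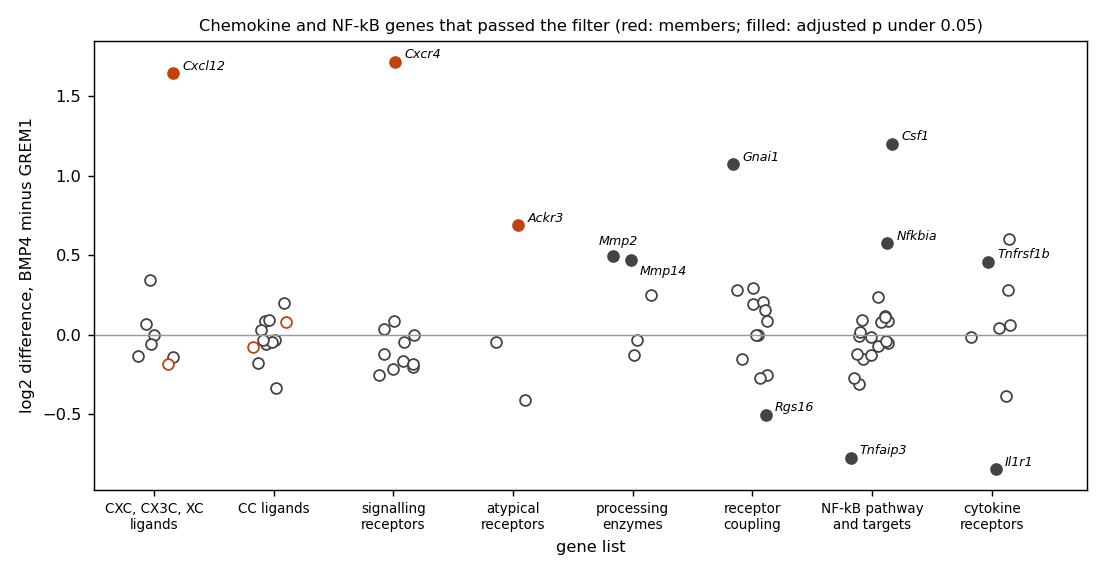
Log2 difference of BMP4 minus GREM1 (vertical axis) for the tested genes of 8 fixed lists (horizontal axis; points are spread sideways for legibility); members are red, and filled points passed at an adjusted p under 0.05. Among ligands and receptors the filled points are Cxcl12, Cxcr4 and Ackr3, and 9 other genes of the lists are filled.

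Downstream of the receptors, the inhibitory G protein subunit Gnai1 fell with GREM1 by 0.95 ± 0.12 (adjusted p = 0.00433), from 8.80 ± 0.22 to 7.84 ± 0.061 (SD, n = 3). It was also higher with BMP4 than with GREM1, by 1.07 ± 0.12 (2.10-fold, adjusted p = 9.12e-04), and both calls held in all 17 alternatives. Its relatives Gnai2 and Gnai3 did not pass in any comparison. Rgs16, which speeds the shut-off of G protein signals, was lower with BMP4 than with GREM1 (-0.50 ± 0.096, adjusted p = 0.0142; adjusted p = 0.0639 at most, the call being lost without BMP4 replicate 3 or GREM1 replicate 2). Of the 13 tested coupling genes 1 fell with GREM1 (4.29% of all genes passed there), and between BMP4 and GREM1 1 was higher and 1 lower (6.45% of all genes). With the replicate block, Grk6, a kinase that marks active receptors for arrestin, and Rgs16 passed too for GREM1 against control (-0.40 and 0.31, adjusted p = 0.0331 and 0.0350); with BMP4 against control 0 passed in limma, and 0 had an unadjusted p under 0.05. The list medians were 0.068 and 0.086 for the comparisons with GREM1 and -0.081 for BMP4 with control.

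Proteases that can trim chemokines were represented by 5 tested genes. For GREM1 against control 1 passed and between BMP4 and GREM1 2 (4.29% and 6.45% of all tested genes). The gelatinase Mmp2 fell with GREM1 by 0.45 ± 0.098 (adjusted p = 0.0365), a call lost when any control, any GREM1 array or BMP4 replicate 2 was left out, and on median centring. Against GREM1, Mmp2 and the membrane-bound protease Mmp14 were higher with BMP4 by 0.50 and 0.47 (adjusted p = 0.0171 and 0.0292). Mmp2 lost that call without BMP4 replicate 3 or GREM1 replicate 2 or 3, and Mmp14 without BMP4 replicate 2 or 3 or any GREM1 array and on median centring. The sheddases Adam10 and Adam17, which can release fractalkine from the membrane, did not pass in any comparison.

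Of the 20 tested genes of the NF-kB list, 3 passed for GREM1 against control, where 4.29% of all genes did: Tnfaip3 rose and Nfkbia and Csf1 fell. The other 17 did not pass, and the median was 0.038. Csf1, the growth factor of macrophages, was 10.3 ± 0.14 in controls and 9.35 ± 0.14 with GREM1 (-0.90 ± 0.16, adjusted p = 0.0164, lost without control replicate 3 or GREM1 replicate 1 or 2). Tnfaip3 and Nfkbia both encode inhibitors of NF-kB. Tnfaip3 differed by 0.72 ± 0.13 (adjusted p = 0.0197) and lost the call without control replicate 1 or 3 or any GREM1 array, and when only the 6 arrays were fitted. Nfkbia differed by -0.62 ± 0.14 (adjusted p = 0.0370) and lost it without any single control or GREM1 array or BMP4 replicate 2, and after a repeated quantile normalization. With BMP4 against control 0 of 20 passed in limma and 0 had an unadjusted p under 0.05.

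Between BMP4 and GREM1 the same 3 of the 20 NF-kB genes passed, where 6.45% of all tested genes did. Csf1 was higher with BMP4 by 1.20 ± 0.16 (2.30-fold, adjusted p = 0.00197) and Tnfaip3 lower by 0.77 (-0.77 ± 0.13, adjusted p = 0.00918), both in all 17 alternatives. Nfkbia was higher by 0.58 ± 0.14 (adjusted p = 0.0370), a call lost without control replicate 2, BMP4 replicate 1 or 2 or any GREM1 array, when only the 6 arrays were fitted, and after a repeated quantile normalization. Of 8 cytokine receptors and adaptors that feed NF-kB 2 passed, beside the same 6.45% of all tested genes. The interleukin-1 receptor Il1r1 was lower with BMP4 (-0.84 ± 0.10, adjusted p = 0.00132, in all 17 alternatives). The TNF receptor Tnfrsf1b was higher by 0.46 (adjusted p = 0.0342), and lost the call without BMP4 replicate 1 or 3 or any GREM1 array, and when only the 6 arrays were fitted. Against control, Il1r1 was -0.42 with BMP4 and 0.43 with GREM1 (adjusted p = 0.324 and 0.0517). The latter passed in 6 of the 17 alternatives, among them the replicate block (adjusted p = 0.0232). The block fit also called Tlr4 and Tnfrsf1a between BMP4 and GREM1 (-0.38 and 0.60, adjusted p = 0.0377 and 0.0276), on a pairing not adopted there.

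Without the block, markers of other cells passed in 1 list. Of 7 pericyte and smooth muscle markers 6 were tested, with list means of 5.96 to 6.08 in controls, 6.20 to 6.39 with BMP4 and 6.17 to 6.30 with GREM1. In this list 1 passed for GREM1 against control and 3 between BMP4 and GREM1 (4.29% and 6.45% of all tested genes). Mcam and Cspg4, surface proteins of pericytes that myogenic cells can also carry, were higher with BMP4 than with GREM1 by 1.06 and 0.56 (adjusted p = 0.00397 and 0.0132, the latter lost without BMP4 replicate 3 or GREM1 replicate 1). The channel subunit Abcc9 was lower by 0.91 (-0.91 ± 0.21, adjusted p = 0.0370, lost without any BMP4 array or GREM1 replicate 1 or 2, and when dim genes were kept), and Acta2 rose with GREM1 by 1.25 (adjusted p = 0.0209, lost without any one GREM1 array and with only the 6 arrays). With the replicate block Abcc9 and Mcam passed for GREM1 against control as well (0.88 and -0.45, adjusted p = 9.14e-04 and 0.0437). Abcc9 gained that call in 6 of the 17 alternatives. The block fit also called Rgs5 and Acta2 between BMP4 and GREM1 (0.80 and -0.90, adjusted p = 0.00572 and 0.0103), on a pairing not adopted there. Acta2 gained that call in 7 of the 17 alternatives. Of the 9 myoblast markers 3 passed for GREM1 against control and 2 between BMP4 and GREM1, where 4.29% and 6.45% of all tested genes did. Cdh15 and Itga7 rose with GREM1 by 0.91 and 1.00 and were lower with BMP4 than with GREM1 by 1.23 and 1.04 (-1.23 and -1.04; highest adjusted p = 0.00347), and Ncam1 rose with GREM1 by 0.53 (adjusted p = 0.0485, lost without control replicate 1 or 3, BMP4 replicate 1 or 2 or any GREM1 array, with array weights, only the 6 arrays, dim genes kept or a repeated quantile normalization). The list's medians were 0.32 for GREM1 against control and -0.031 for BMP4 against GREM1. Myf5, a regulator of early myoblasts, was -0.85 with GREM1 against control and Myog, a regulator of differentiation, 0.90 (adjusted p = 0.144 and 0.0946), and both passed with the block (adjusted p = 9.73e-04 and 0.0167). For BMP4 against GREM1 the block fit, again on the pairing not adopted there, added Myf5 and Ncam1 (1.02 and -0.34, adjusted p = 1.53e-04 and 0.0397). The part of these markers in the chemokine differences was not tested.

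The genes whose profile over the 9 arrays came closest to each called member were found by the root mean square difference of profiles centred on their means, among 15275 tested genes. Nearest to Cxcr4 were Lfng, a glycosyltransferase that modifies Notch receptors (0.10 on the log2 scale), Ptprm, a receptor tyrosine phosphatase (0.17), and Stmn2, a microtubule regulator (0.18), where the Cxcr4 profile itself had an SD of 0.77. Lfng differed by -1.02 ± 0.11 after GREM1 (adjusted p = 0.00223) and by 1.67 ± 0.11 between BMP4 and GREM1. Nearest to Cxcl12 (SD 0.79) were Rrm2, a ribonucleotide reductase subunit (0.14), Nrp1, a co-receptor for semaphorins and VEGF (0.14), and Crip1, a LIM domain protein (0.17). Nearest to Ackr3 (SD 0.38) were Cep128, a centriole protein (0.064), Aspm, a spindle pole protein (0.086), and Zwilch, a kinetochore protein (0.095). Cxcl12 and Cxcr4 were 0.42 apart, which put Cxcr4 at rank 215 by likeness to Cxcl12 and Cxcl12 at rank 143 by likeness to Cxcr4. Measured from Ackr3, whose profile varied less, Cxcl12 stood at rank 11550 and Cxcr4 at rank 13875. As these genes were picked for likeness to the members, their values are a description.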

How the data were processed

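Expression was measured in 9 samples of mouse primary myoblasts, 3 per group, on 1 Affymetrix array each. The authors deposited log2 values; the submitters' processing notes name Affymetrix Expression Console and RMA, the robust multi-array average. For array model, chip definition and genome build: not given in the sources. The 24973 probe sets comprised 24015 with a single gene symbol and 958 unnamed ones, which were left out. For 4 genes with several probe sets the one with the highest mean was taken, giving 24011 genes. The filter asked for 3 or more arrays above their own 30th percentile and kept 17141 genes. Groups were compared with limma 3.58.1 under R 4.3.3 (functions lmFit and eBayes, all 9 arrays, 6 residual and 3.47 prior degrees of freedom, two-sided), with Benjamini-Hochberg adjustment over all tested genes and a threshold of 0.05; the fit was tested on simulated data. The number of arrays limits the precision.

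Same-numbered arrays deviated from their group means with correlations of 0.170 to 0.580 (control and BMP4), 0.118 to 0.473 (control and GREM1) and 0.0884 to 0.423 (BMP4 and GREM1). The numbers were therefore taken to pair samples in the comparisons with control, as every pair exceeded 0.1 there, and not between BMP4 and GREM1. Some arrays of unlike number also exceeded 0.1, such as control replicate 2 and BMP4 replicate 1 (0.144). The pairing is thus an assumption, and the main fit did not use it. Of the listed genes, those past the threshold were named, with the 3 other ligands or receptors of smallest p per comparison and the 3 nearest profiles of each called member. The members and lists were chosen with earlier results of these data known. The alternatives were the replicate number as a block, the arrays compared alone, a variance trend, array weights, a repeated quantile normalization, median centring, no filter or one at the 50th percentile, and leaving out each array. Listed genes without values were not analysed here.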

Additional observations from a re-analysis of the deposited data

How the results depend on the processing

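The 18 differences of the 6 tested members were recomputed under 17 alternatives, giving 306 values. Of these 280 kept their direction and their side of the threshold, 10 lost the call (all Ackr3 between BMP4 and GREM1), 5 gained it and 11 changed sign, all of them Ccl2, Ccl7 or Ackr3 values that passed in neither fit. With array weights Cxcl12 passed for GREM1 against control (-0.95, adjusted p = 0.0283), so that 2 members passed. The replicate block gave 2 members for BMP4 with control, 3 for GREM1 with control and 3 for BMP4 with GREM1, where it moved Ackr3 to an adjusted p of 0.00294. Block results for BMP4 with GREM1, here and in the next counts, rest on a pairing not adopted for those groups. With the block 2, 11 and 14 genes of the chemokine and NF-kB lists passed (0, 6 and 12 without), and 65, 1985 and 2192 of all genes (20, 735 and 1106 without).

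Over all genes, fitting only the 6 arrays compared gave 5 calls for BMP4 and 437 for GREM1 against control, array weights 68 for BMP4 against control and 1768 for BMP4 against GREM1, and the filter at the 50th percentile 31 for BMP4 against control. Leaving out 1 array gave 2 to 17, 245 to 898 and 560 to 1155 calls over all genes, 0, 2 to 7 and 6 to 12 over the lists, and 0, 1 and 2 to 3 over the members, in the order BMP4 and GREM1 against control, then BMP4 against GREM1.

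Ccl7 for BMP4 against control was 0.14 with array weights, 0.020 after a repeated quantile normalization and 0.029 after median centring, and -0.12 to 0.15 when 1 array was left out. On leaving out 1 array, Ccl2 and Ackr3 for BMP4 against control were -0.10 to 0.0080 and -0.023 to 0.26, Ccl2 and Ccl7 for GREM1 against control -0.036 to 0.083 and -0.20 to 0.070, and Ccl7 for BMP4 against GREM1 -0.0095 to 0.22. The cause of these changes was not tested. No member had a further probe set to test separately.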
